A study of Mus musculus with 9 samples.

Results

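The genes described here mark T cells and cytotoxic lymphocytes, and they were followed across 9 samples of mouse proximal colon. The set holds 10 genes, Cd3d, Cd3e, Cd3g, Cd8a, Cd8b1, Lck, Gzma, Gzmb, Ccl5 and Itgae, and its members are all probe sets that the array's annotation gives to one of them. The annotation names 10 such probe sets for 9 of the genes, Cd8a having 2 of them, among 22626 probe sets other than controls. Of the 10 probe sets, 6 (1 each for Cd3d, Cd3e, Cd8a, Gzma, Ccl5 and Itgae) were bright enough to be among the 13576 tested. The other 4, of Cd3g, Cd8b1, Gzmb and the second probe set of Cd8a, were dimmer than the limit of 75.5 signal units and are given as values. Lck, the kinase that starts signalling from the T cell receptor, has no probe set under its name in the annotation and was not analysed here.

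The study compared Shmt1 (cSHMT) genotypes in C57Bl/6 mice, with 3 wild-type, 3 heterozygous and 3 mutant Affymetrix arrays of amplified colon RNA. Shmt1 encodes cytosolic serine hydroxymethyltransferase, an enzyme of one-carbon metabolism. The line had been backcrossed for 10 generations, and the labels do not say how the gene was altered or which sex the mice were. All genotypes, wild-type included, were weaned at 3 weeks onto AIN-93G lacking folate and choline and were 9 weeks old, so no group on a full diet is compared here. For the time on this diet the labels give 6 weeks in one place and 5 weeks in another. The labels call the arrays of a genotype biological replicates without saying which animals or litters they came from, so the p-values measure the spread between these samples. Each array is taken as 1 mouse in what follows, which the labels do not state. Shmt1 checked the labels: on each of its 4 probe sets every mutant array lay below every other array, and on the probe set that separated them most the signal was 564.3 to 644.1 in the wild-type, 274.4 to 337 in the heterozygous and 113.1 to 120 in the mutant group. Array medians lay between 129.4 and 162.2 signal units, and beta-actin read 4.45 to 5.02 times brighter at its 3' than at its 5' end on the arrays numbered 1, against 2.52 to 3.75 times on the others. The pairwise correlation of log2 signal over all probe sets was 0.986 to 0.993.

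T cells recognise antigen through a receptor whose signalling part is the CD3 complex, to which the proteins of Cd3d, Cd3e and Cd3g belong. CD8, a dimer of the Cd8a and Cd8b1 proteins or of Cd8a alone, is carried by cytotoxic T cells and by many lymphocytes that live between the epithelial cells of the gut. Such cells hold granzymes, proteases delivered into target cells, release the chemokine Ccl5, and bind E-cadherin of the epithelium through the integrin chain CD103, the product of Itgae.

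Promoters are shown for the 3 CD3 genes, which lie next to each other on chromosome 9 and did not all follow the same course, and for the 2 granzymes, whose levels are described beside them. The RefSeq table of build GRCm38.p6 gave a promoter for 7 of the 10 genes, all but Cd8b1, Ccl5 and Itgae. Each line is the 250 bases before the start of the gene, 5′ to 3′ on the gene's strand, and capitals mark matches to 5 short motifs searched on both strands.
Cd3d (chr9:44981536-44981785, plus strand): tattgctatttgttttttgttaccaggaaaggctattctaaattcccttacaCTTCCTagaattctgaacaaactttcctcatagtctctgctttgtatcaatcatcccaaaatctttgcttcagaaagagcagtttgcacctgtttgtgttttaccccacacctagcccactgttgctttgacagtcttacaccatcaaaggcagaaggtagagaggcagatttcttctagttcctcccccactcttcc
Cd3g (chr9:44980432-44980681, minus strand): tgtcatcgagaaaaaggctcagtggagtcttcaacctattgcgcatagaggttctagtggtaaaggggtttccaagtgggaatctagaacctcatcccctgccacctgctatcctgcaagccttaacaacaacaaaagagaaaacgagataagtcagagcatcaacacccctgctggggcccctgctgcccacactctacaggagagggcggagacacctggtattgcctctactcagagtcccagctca
Cd3e (chr9:45009612-45009861, minus strand): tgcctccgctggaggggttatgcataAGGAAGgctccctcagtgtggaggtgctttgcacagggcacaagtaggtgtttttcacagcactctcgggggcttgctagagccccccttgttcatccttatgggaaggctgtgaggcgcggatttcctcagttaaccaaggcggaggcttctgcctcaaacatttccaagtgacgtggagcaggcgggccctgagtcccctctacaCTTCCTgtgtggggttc
Gzma (chr13:113100982-113101231, minus strand): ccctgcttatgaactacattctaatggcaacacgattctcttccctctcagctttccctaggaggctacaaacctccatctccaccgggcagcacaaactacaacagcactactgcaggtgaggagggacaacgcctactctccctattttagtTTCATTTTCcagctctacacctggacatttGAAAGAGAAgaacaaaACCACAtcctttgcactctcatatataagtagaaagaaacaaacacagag
Gzmb (chr14:56262335-56262584, minus strand): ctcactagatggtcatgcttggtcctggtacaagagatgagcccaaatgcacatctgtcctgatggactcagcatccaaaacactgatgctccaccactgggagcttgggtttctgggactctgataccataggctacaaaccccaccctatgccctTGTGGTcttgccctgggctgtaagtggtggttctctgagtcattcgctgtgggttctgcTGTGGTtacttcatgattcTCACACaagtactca

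The motifs were the RUNX core TGTGGT, the ETS core in the letters AGGAAG, the T-box half-site TCACAC, the interferon-stimulated response element core GAAANNGAA and a kappaB-like GGANNTTCC. RUNX, ETS and T-box proteins are families of transcription factors that act in T cells, and the response element is bound by the factors that interferon activates. Cd3d held 1 ETS match and Cd3e 2, while Cd3g and Cd8a held none of the 5 motifs. Gzma held 1 RUNX match, 45 to 50 bases before the start, and 2 matches of the interferon element, at 58 to 66 and 88 to 96 bases. Gzmb held 2 RUNX matches and 1 T-box match. Among all 32851 promoters of the same length, 14.0% held the RUNX letters, 29.5% the ETS letters, 12.3% the T-box letters, 7.13% the interferon element and 3.59% the kappaB-like letters. A match describes the letters in this window and was not tied to binding by any measurement here.

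The levels varied widely between single mice of the heterozygous and mutant genotypes. Wild-type colons had similar levels of most of these genes. Between wild-type mouse 1 and mouse 3, though, signals fell from 1280.6 to 222.2 for Cd3e, 702.4 to 328.9 for Gzma and 1746 to 1037.7 for Ccl5. Of the heterozygous mice, mouse 1 was low and mice 2 and 3 were near wild-type. Of the mutant mice, mouse 1 was intermediate or near wild-type and mice 2 and 3 were low. Heterozygous mouse 1, mutant mouse 2 and mutant mouse 3 were the lowest 3 of the 9 arrays on 9 of the 10 probe sets, all but that of Cd3e. The same 3 arrays were the lowest on 206 of the 13576 tested probe sets (1.52%). This pattern was picked after the values were seen and is a description of these mice. In bulk colon RNA, fewer cells of a type and less RNA per cell cannot be told apart.

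**Figure D1:**
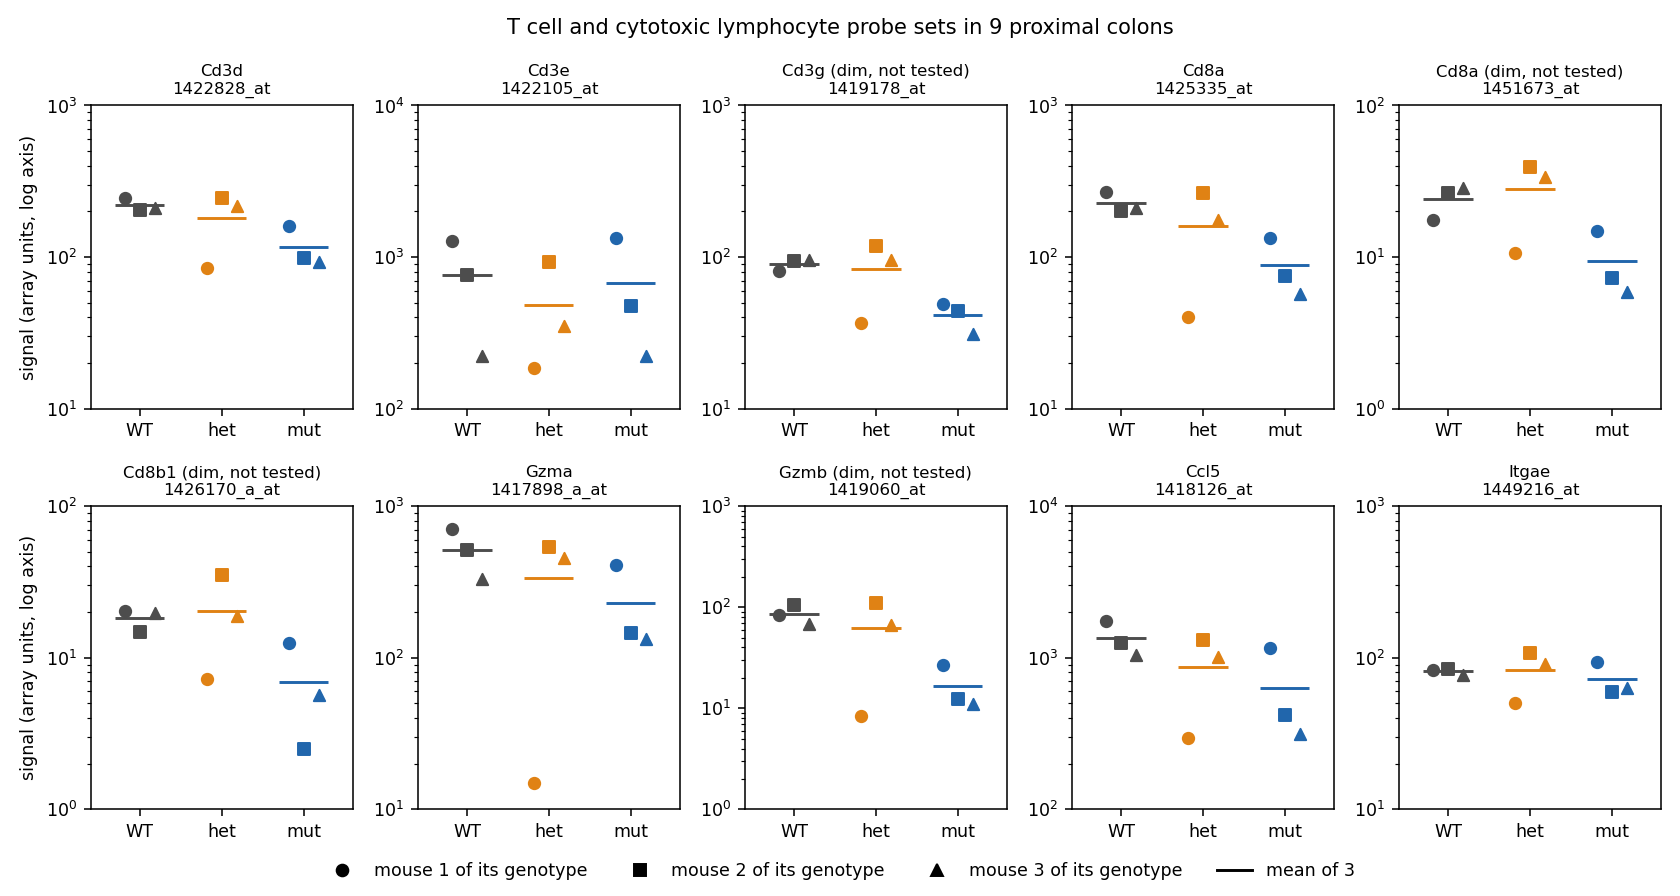
Each panel plots 1 probe set: deposited signal in array units on a log axis for each of 9 mice, with circle, square and triangle for mice 1, 2 and 3 of a genotype and a line at the mean of 3. The heterozygous circle and the mutant square and triangle lie lowest in every panel but that of Cd3e, and the axes span different ranges.

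Among the CD3 genes, Cd3d and Cd3g read together. Cd3d had signals of 245.9, 203.3 and 209.7 in wild-type mice 1, 2 and 3, of 84.9, 245.3 and 216.2 in heterozygous and of 159.6, 99 and 93.2 in mutant mice. All mutant values lay below all wild-type values, and heterozygous mouse 1 was the lowest of all. The Cd3d means were 219.6 ± 23.0 (SD, n = 3) in the wild-type, 182.1 ± 85.5 in the heterozygous and 117.3 ± 36.8 in the mutant group. Cd3g, which makes the gamma chain, read 80.7, 94.1 and 96.4 in the wild-type mice, 36.8, 119.1 and 95.7 in the heterozygous mice and 49.1, 43.9 and 31.0 in the mutant mice. Again the mutant values did not reach the wild-type ones, and mutant mouse 3 was the lowest.

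Cd3e, whose epsilon chain the receptor needs to reach the cell surface, went another way. Its signals were 1280.6, 766.6 and 222.2 in the wild-type mice, 186.2, 925.8 and 348.8 in the heterozygous mice and 1329.2, 478.9 and 223.1 in the mutant mice. The genotypes overlapped fully, with a mutant mouse at the top and mutant mouse 3 level with wild-type mouse 3. Arrays numbered 1 held the highest Cd3e signal in wild-type and mutant and the lowest in heterozygous colons, and on these arrays beta-actin was the most tilted to its 3' end; the part of that tilt in the Cd3e values was not tested.

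The CD8 genes showed the pattern of Cd3d. The brighter probe set of Cd8a read 267, 201.1 and 210.4 in the wild-type mice, 40.5, 266.1 and 174.9 in the heterozygous mice and 134, 75.1 and 56.7 in the mutant mice. All mutant values were under all wild-type values, while heterozygous mouse 1 stood at 18.4% of the mean of the other 2 heterozygous mice. The dimmer Cd8a probe set, at 17.5 to 28.6 in the wild-type, 10.7 to 39.4 in the heterozygous and 5.9 to 14.9 in the mutant mice, and that of Cd8b1, at 14.8 to 20.4, 7.2 to 35 and 2.5 to 12.6, also separated mutant from wild-type. These last 2 probe sets were close to background: the 27 Bacillus control probe sets, which should find no target, reached 10.9 at most, and each of the 2 exceeded this on 6 of 9 arrays.

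The granzymes were close to background in single mice. Gzma, a granzyme of cytotoxic T and natural killer cells, read 702.4, 514 and 328.9 in the wild-type mice, 14.9, 540.3 and 455.4 in the heterozygous mice and 411.1, 145.9 and 132.6 in the mutant mice. Its lowest value, in heterozygous mouse 1, was not far above the 10.9 of the brightest Bacillus control, and mutant mouse 1 was above wild-type mouse 3. Gzmb, the granzyme that activates caspases in the target cell, read 83.1, 104.3 and 69 in the wild-type mice, 8.4, 110.1 and 66.7 in the heterozygous mice and 26.8, 12.5 and 11 in the mutant mice. Mutant and wild-type colons did not overlap for Gzmb. The Gzmb signals of heterozygous mouse 1 and of mutant mice 2 and 3 were at about that background, which limits how well its fold is measured.

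Ccl5, a chemokine that memory and cytotoxic T cells store and release, read 1746, 1245.4 and 1037.7 in the wild-type mice, 296, 1310.4 and 1015.1 in the heterozygous mice and 1158, 421.2 and 316.5 in the mutant mice. Mutant mouse 1 exceeded wild-type mouse 3, so the genotypes overlapped, while the other mutant mice were below every wild-type value. Itgae varied least, with a 2.11-fold range: 82.9, 84.7 and 77.6 in the wild-type mice, 50.7, 107.2 and 90.7 in the heterozygous mice and 93.5, 59.6 and 63.4 in the mutant mice. The mutant values of Itgae lay on both sides of the wild-type ones. By deposited signal, the genotype means ran wild-type, heterozygous, mutant on 6 probe sets. They ran heterozygous, wild-type, mutant on 3 (the dimmer of Cd8a, Cd8b1 and Itgae), and wild-type, mutant, heterozygous for Cd3e. By mean log2 level, heterozygous was instead below wild-type for Cd8b1 and Itgae and below mutant for Gzma. No pair of neighbours in these orders had an adjusted p under 0.05 on the 6 tested probe sets.

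Mutant against wild-type, the first of the comparisons in the study's design, asks how the mutant genotype at Shmt1 alters expression under this diet. All 10 probe sets of T cell and cytotoxic genes had a lower mean log2 level in mutant than in wild-type colons, and none of the 6 tested passed. The log2 fold changes, on the scale of quantile normalized log2(signal + 16), were -1.26 (SE 0.528) for Ccl5, -1.23 (SE 0.483) for Cd8a, -1.22 (SE 0.894) for Gzma, -0.82 (SE 0.320) for Cd3d, -0.22 (SE 0.751) for Cd3e and -0.15 (SE 0.238) for Itgae. Each had an adjusted p of 0.998 by limma with Benjamini-Hochberg adjustment over all tested probe sets, of which 0.0221% passed in this comparison. Before adjustment 3 of the 6, Cd3d, Cd8a and Ccl5, were under 0.05, beside 521 of all tested probe sets (3.84%). That count was 0 without wild-type mouse 1, without mutant mouse 2 or without mutant mouse 3. In the fit without a filter it was 7 of 10, and the share of all probe sets under 0.05 in that fit is not given here.

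The signals of the 3 mutant mice were all below those of the 3 wild-type mice on 6 of the 10 probe sets, those of Cd3d, Cd3g, Cd8a (both), Cd8b1 and Gzmb. Over all 22626 probe sets the share lower without overlap was 3.53%. The median log2 fold change of the 6 tested genes was -1.02, against 0.00 over all tested probe sets, of which 49.0% were lower. With the dim genes included, the median of the 9 genes was -0.89. In the fit without a filter the dim probe sets had log2 fold changes of -1.62 for Gzmb, -0.89 for Cd3g, -0.64 for the second Cd8a and -0.59 for Cd8b1 (adjusted p = 0.998 by limma for each), and the added 16 shrinks folds at such low signals. The array number went with the beta-actin tilt in each genotype, so arrays of the same number were also compared: mutant was below wild-type in all 3 on 8 of the 10 probe sets, Ccl5 and Gzma included and Cd3e and Itgae not, beside 13.7% of all probe sets. When the 3 arrays numbered 1 were left out together, Ccl5 passed, with a log2 fold change of -1.59 (limma adjusted p = 0.0364, 2 arrays per genotype), and it was 1 of 9 probe sets called.

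**Figure D2:**
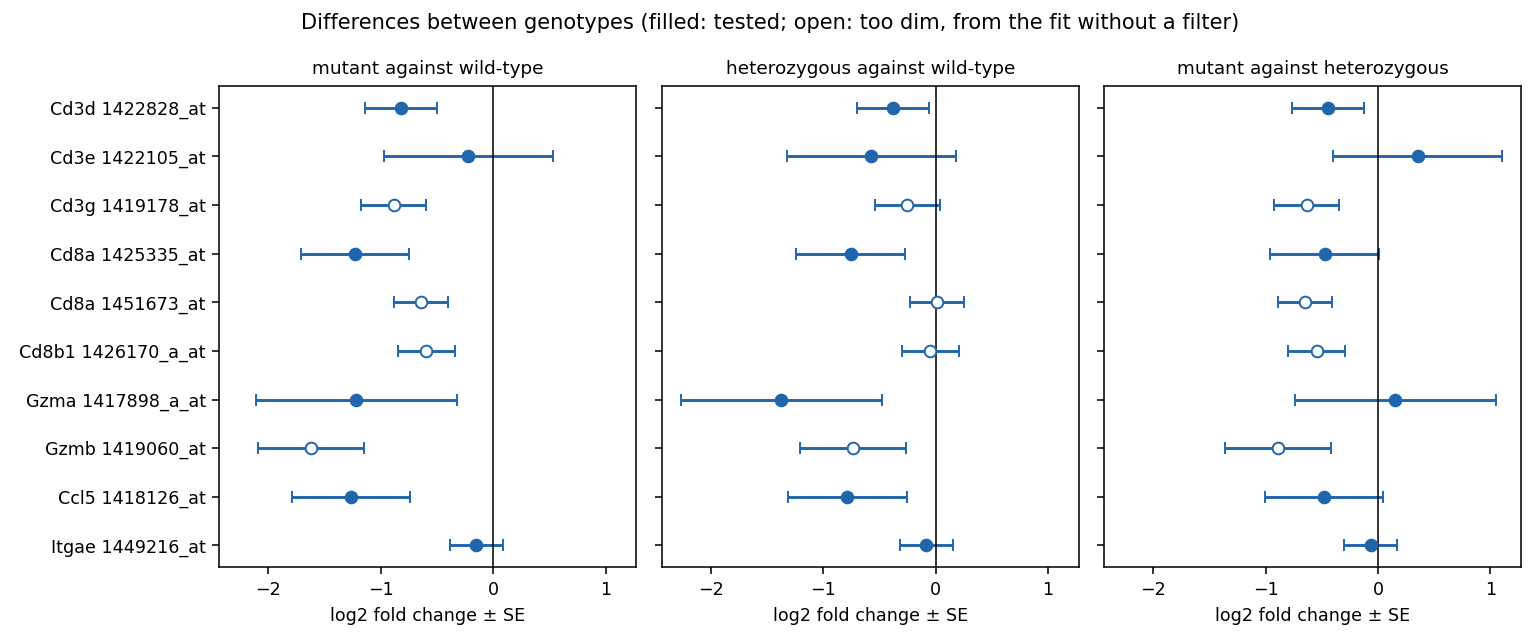
Log2 fold change ± SE of each probe set (rows) in the 3 comparisons (panels), filled for the 6 tested and open for the 4 dim probe sets from the fit without a filter. All 10 points lie left of 0 in mutant against wild-type, from -1.62 for Gzmb to -0.15 for Itgae, and the bars of Gzma and Cd3e are the longest.

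Heterozygous against wild-type, the other comparison of the design, rests largely on heterozygous mouse 1. The log2 fold changes were -1.37 (SE 0.894) for Gzma, -0.78 (SE 0.528) for Ccl5, -0.76 (SE 0.483) for Cd8a, -0.57 (SE 0.751) for Cd3e, -0.38 (SE 0.320) for Cd3d and -0.08 (SE 0.238) for Itgae. The adjusted p by limma was 0.713 to 0.950, none of the 6 passed, and the share that passed among all tested probe sets was 0.0%. None of the 6 had an unadjusted p under 0.05 (limma), beside 1087 of all tested probe sets (8.01%). None of the 10 probe sets was lower without overlap, beside 5.03% over all probe sets. The median was -0.66 over the 6 tested genes and 0.00 over all tested probe sets. The dim probe sets had -0.74 for Gzmb, -0.25 for Cd3g, 0.013 for the second Cd8a and -0.048 for Cd8b1, and the median of the 9 genes was -0.57. On the arrays numbered 1 all 10 probe sets were lower in the heterozygous mouse, on those numbered 2 none was and on those numbered 3 there were 5. None of the 10 was lower in all 3 numbers, beside 16.2% of all probe sets. Without heterozygous mouse 1 alone the median was -0.076. Without all 3 arrays numbered 1, all 6 fold changes turned positive, from 0.013 for Ccl5 to 0.44 for Cd3e, with a median of 0.18 and none passing.

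Mutant against heterozygous colons had lower mean log2 levels on 8 of the 10 probe sets, all but those of Gzma and Cd3e, and none passed. The log2 fold changes were -0.48 (SE 0.528) for Ccl5, -0.47 (SE 0.483) for Cd8a, -0.44 (SE 0.320) for Cd3d, -0.07 (SE 0.238) for Itgae, 0.15 (SE 0.894) for Gzma and 0.35 (SE 0.751) for Cd3e. None of the 6 passed (limma adjusted p = 0.749 to 0.971), while 0.0221% of all tested probe sets did, and none of the 6 had an unadjusted p under 0.05, beside 1027 of all tested probe sets (7.56%). No member probe set was lower without overlap, beside 5.41% of all. The median was -0.25 over the 6 tested genes and 0.00 over all. In the fit without a filter the dim probe sets had -0.89 for Gzmb, -0.65 for the second Cd8a, -0.63 for Cd3g and -0.55 for Cd8b1. The median of the 9 genes was -0.47. Of these dim probe sets, the second Cd8a and Cd3g were under 0.05 before adjustment (limma adjusted p = 0.697 and 0.709). The share of all probe sets under 0.05 in that fit is not given here. On the arrays numbered 1 all 10 probe sets were higher in the mutant mouse, and on those numbered 2 and 3 all 10 were lower. None was thus lower in all 3 numbers, beside 18% of all probe sets. Without heterozygous mouse 1 alone, 7 of the 10 probe sets were lower in mutant than in heterozygous colons without overlap, beside 15.0% of all probe sets with that array left out, and Gzma then stood at -1.17. Without the 3 arrays numbered 1 there were 9 of 10, where 19.9% of all probe sets were lower without overlap. The 3 comparisons share arrays pairwise, so their fold changes are not separate evidence.

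The members varied together from mouse to mouse. Over the 45 pairs of member probe sets, Pearson's r of log2 signal over the 9 mice ranged from 0.34 to 0.98 with a median of 0.86, and Spearman's rho had a median of 0.83. After each genotype's mean was subtracted the median r was 0.89. This value pools the mice of all genotypes, and no r is given for a genotype alone. In the wild-type mice, in the order listed above, not all members shared a course. Signals fell for Ccl5 (1746, 1245.4 and 1037.7) and Gzma (702.4, 514 and 328.9), and rose for the dimmer Cd8a probe set (17.5, 26.4 and 28.6). Cd3d with the brighter Cd8a probe set and Cd3d with Ccl5 had r = 0.98 each, Gzma with Ccl5 0.90, and Gzma with Gzmb 0.84. Cd3e stood apart, with a median r of 0.65 over its 9 pairs; within the CD3 genes its r was 0.65 with Cd3d and 0.48 with Cd3g, against 0.93 between Cd3d and Cd3g. All these values come from the same 9 arrays, so RNA amount, amplification and array are shared by every pair, and no p is given.

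**Figure D3:**
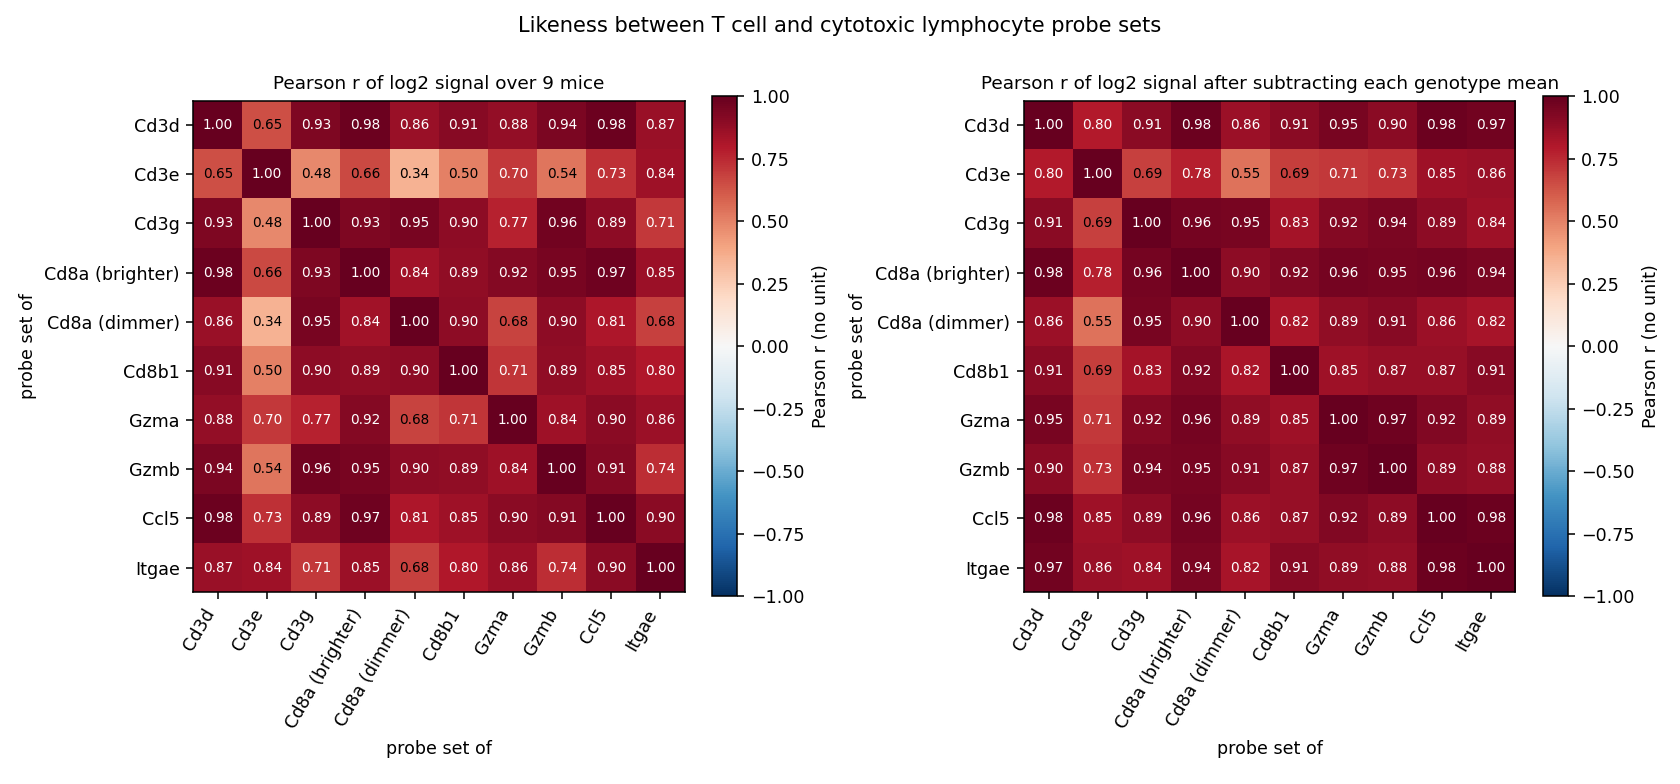
Pearson r, without unit, between each pair of 10 probe sets, from log2 signal over 9 mice at left and after subtracting each genotype's mean at right. The Cd3e row is the palest in both, with a median r of 0.65 at left against 0.86 over all 45 pairs.

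A member score, the mean over the 6 tested genes of each gene's standardized log2 level, summed this up in 1 value per mouse. It was 1.13, 0.49 and 0.04 in wild-type mice 1, 2 and 3, -1.49, 0.87 and 0.21 in heterozygous and 0.69, -0.74 and -1.19 in mutant mice. The 10 genes outside the set whose tested probe sets were most like this score over the 9 mice were Iigp1, Nkg7, Xdh, Parp12, Irf9, Psmb9, Ifi47, Mocos, Aif1 and Oasl2, with r from 0.96 to 0.98 and rho from 0.90 to 0.98. Among them, Nkg7 is a granule protein of cytotoxic lymphocytes, Aif1 a macrophage protein, Psmb9 a subunit of the immunoproteasome, Iigp1 and Ifi47 interferon-induced GTPases, Irf9 a part of the interferon-activated factor and Oasl2 an interferon-induced oligoadenylate synthetase-like protein. Without heterozygous mouse 1 and mutant mouse 3, which have the lowest scores, r was 0.88 to 0.99 for these genes. Over 12483 probe sets with a single gene name, the median r was -0.03, and 64 (0.513%) exceeded 0.9.

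Nkg7 read 406.7, 377.4 and 245.8 in the wild-type mice, 111.7, 414.6 and 338.4 in the heterozygous mice and 282.1, 186.7 and 122.8 in the mutant mice. Iigp1 read 520.7, 453.2 and 370.8 in the wild-type mice, 86.5, 500.5 and 266.3 in the heterozygous mice and 401, 174.4 and 117.1 in the mutant mice. Both had their lowest value in heterozygous mouse 1 and the next lowest in mutant mouse 3, as the score has. Their log2 fold changes in mutant against wild-type were -0.79 and -1.06, with an adjusted p of 0.998 each by limma.

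Genes that work with the members were read from lists, of which no gene passed in any of the 3 comparisons. In the T cell receptor complex and signalling list, 5 of 18 named genes were bright enough to test, and all 5 were lower in mutant than in wild-type colons, with a median log2 fold change of -0.19. The lowest unadjusted p were those of Csk, a kinase that restrains Lck (-0.35), Ptprc, the CD45 phosphatase (-0.33), Fyn, a kinase related to Lck (-0.19), and Vav1, an exchange factor (-0.05). The other chains and adaptors were dim: Cd247, the zeta chain, read 30 to 63.5, and Zap70, the kinase that binds it, 13 to 34.5. Cd247 was highest in mutant mouse 3, where most members were low, and its r with the score was -0.80. Most other dim genes of this list went with the score, with r = 0.81 for Lat, 0.80 for Lcp2, 0.79 for Rhoh and 0.69 for Ptpn22. Txk (-0.57) and Grap2 (-0.08) were the others below 0. All the dim genes named here, and Cd4, Prf1, Gzmk, Ncr1 and Pax5, were named after their values were seen.

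Among surface and lineage genes of T cells, 5 of 6 tested were lower in mutant colons, with a median of -0.25. Cd7, a surface protein of T and natural killer cells, read 255.0 ± 20.6 (SD, n = 3) in the wild-type, 291.7 ± 117.7 in the heterozygous and 172.9 ± 22.9 in the mutant group, a log2 fold change of -0.51 in mutant against wild-type. Thy1, a surface protein of T cells, Il7r, the receptor of the T cell survival factor interleukin 7, and Cd160, a receptor of intestinal cytotoxic cells, had values of -0.31, -0.32 and -0.19. Cd4, the co-receptor of helper T cells, was dim, at 25.4 to 53 in all mice, and its r with the score was 0.06.

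Among 9 tested genes of cytotoxic granules and killer receptors, 7 were lower in mutant colons, with a median of -0.24. Ctsw, a protease of cytotoxic lymphocytes, read 196.1 ± 19.4, 171.1 ± 83.6 and 120.9 ± 34.5 in wild-type, heterozygous and mutant colons (log2 fold change -0.65). Srgn, the proteoglycan that packs granules, had -0.39 and Klrd1, the CD94 receptor chain, -0.38. Prf1, the pore-forming perforin that lets granzymes enter the target cell, did not follow: it read 73.3, 110.4 and 141.5 in the wild-type mice, 83.5, 124.9 and 153.3 in the heterozygous mice and 90.1, 125.9 and 141.4 in the mutant mice (log2 fold change 0.15, r with the score -0.18). Its lowest value in each genotype was on the array numbered 1, where beta-actin was the most tilted to its 3' end, and the part of that tilt was not tested. Gzmk, another granzyme, was dim and resembled Gzmb, at 76.7, 82.7 and 68.8 in the wild-type mice, 10.1, 65.4 and 34.4 in the heterozygous mice and 46.1, 7.6 and 5.7 in the mutant mice.

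Of 20 tested genes of homing, retention and the epithelial partners of these lymphocytes, 14 were lower in mutant colons, with a median of -0.13. Itgb7, whose protein pairs with CD103, read 112.6 ± 19.5, 92.0 ± 17.5 and 73.2 ± 5.81 in the wild-type, heterozygous and mutant groups, a log2 fold change of -0.51 in mutant against wild-type. Cxcr6, a chemokine receptor of resident T cells, had -0.55, and the class I genes H2-K1 and H2-D1, whose proteins show antigen to CD8 cells, -0.38 and -0.24. Cdh1, which encodes E-cadherin, the ligand of CD103, read 4149.2 to 4393.9 in the wild-type, 4490.9 to 4826.9 in the heterozygous and 4311.8 to 5073.6 in the mutant group. Mutant against wild-type gave it a log2 fold change of 0.14, which did not pass.

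Pan-leukocyte and myeloid genes moved with these genes, and epithelial genes did not. The pan-leukocyte list is not separate from T cells, since its gene Ptprc is also in the T cell receptor list. With the member score, the mean of the 4 tested B cell list genes had r = 0.91, Cxcl13 of the follicle list 0.27 and Kit of the mast cell list -0.65. Of those 4 genes, Ighm had r = 0.58, Jchain and Pou2af1 0.79 each, and Cd52, a surface protein of lymphocytes, 0.96. The genes of the B cell list too dim to test had r from -0.04 to 0.40. All 9 tested pan-leukocyte genes and all 13 tested macrophage and myeloid genes had lower means in mutant than in wild-type colons, with median log2 fold changes of -0.33 and -0.26. Summed over the list, the pan-leukocyte signal was 5697 to 7240 in wild-type, 4385 to 6703 in heterozygous and 4396 to 6298 in mutant mice, and the myeloid signal 9568 to 13913, 9730 to 11500 and 8273 to 11763. The mean log2 level of the pan-leukocyte list had r = 0.97 with the member score over the 9 mice, and that of the myeloid list r = 0.91. Of the natural killer and innate lymphoid list, 0 of 9 named genes were bright enough to test. The defining killer cell receptor Ncr1 read 0.5 to 5.8, at the level of the Bacillus controls. Klra8, Il17a, Il5 and Il13 also stayed below the brightest of these controls. Klra7, at 20.1 to 43.2, and Gata3, at 13.2 to 26.7, read above them, and Tbx21 (6.4 to 22.8) and Eomes (6.9 to 19) did so on some arrays. These genes were named after their values were seen. The 11 epithelial genes, among them the keratin gene Krt19 (-0.07), Epcam (-0.10) and Car1 (-0.03), had a median log2 fold change of -0.01, a summed signal of 50077 to 58369 in wild-type, 47856 to 55246 in heterozygous and 46350 to 58784 in mutant mice, and r = -0.07 with the score. The part of these cells in the members' values was not tested.

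Interferon-induced genes, a list that includes several of the genes most like the score, lay furthest from 0 in median among these lists. Of 30 tested, 29 were lower in mutant than in wild-type colons, with a median of -0.71, and 29 were lower in heterozygous colons, with a median of -0.83; none passed. Their mean log2 level was 9.74, 9.16 and 9.26 in the wild-type mice, 7.86, 9.41 and 8.67 in the heterozygous mice and 9.42, 8.37 and 8.16 in the mutant mice. The same 3 mice that were lowest for the T cell genes were lowest here, on 24 of the 30 genes, and the list had r = 0.96 with the score. These mice were the lowest 3 on 3 of 5 tested receptor signalling genes, 0 of 6 surface and lineage genes, 1 of 9 cytotoxic genes, 6 of 20 homing genes, 5 of 9 pan-leukocyte genes, 5 of 13 myeloid genes, 2 of 4 B cell genes and 1 of 11 epithelial genes, so many other tested T cell and cytotoxic genes did not have them lowest. Psmb8, of the immunoproteasome (-0.82), Mx1, an antiviral GTPase (-0.70), Cd74, the invariant chain (-0.49), and Tap2, a peptide transporter (-0.36), had the lowest unadjusted p of the list.

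**Figure D4:**
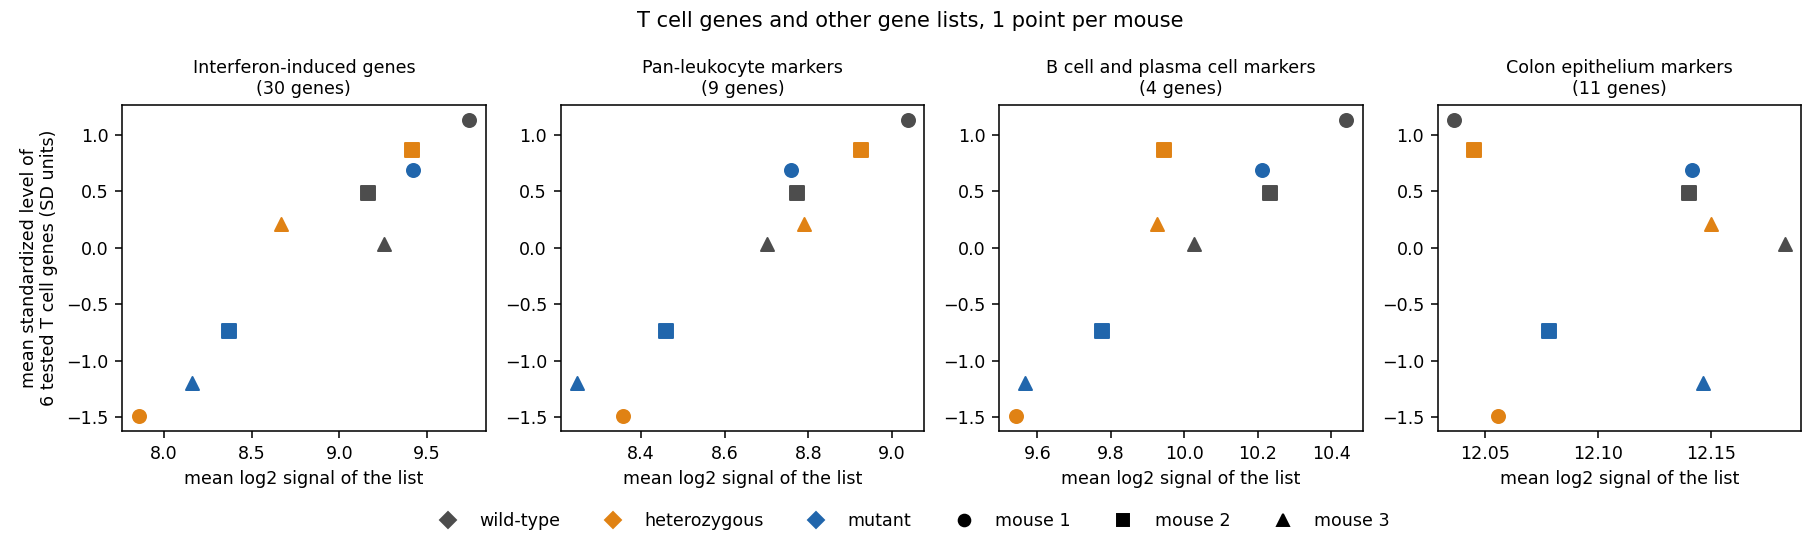
Member score (mean standardized level of 6 tested genes, in SD units) against the mean log2 signal of 4 gene lists, 1 point for each of 9 mice, coloured by genotype, with shapes for mouse 1, 2 and 3. The interferon-induced list (r = 0.96) and the pan-leukocyte list (r = 0.97) line up with the score and the epithelial list (r = -0.07) does not.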

How the data were processed

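Each probe set has 1 intensity per array in the authors' deposited table, on a linear scale. GCOS, Affymetrix's software, stands in the submitters' processing notes, with version and scaling not given in the sources used here. Per the labels' protocols, about 50 ng of colon RNA was amplified with a NuGEN Ovation kit.

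Signals plus 16 were log2 transformed and quantile normalized. The 64 control probe sets were left out, as were probe sets with a mean under the 40th percentile. Limma (3.58.1, R 4.3.3; lmFit, eBayes with trend) was fitted to all 9 arrays without covariate, with Benjamini-Hochberg adjustment over 13576 probe sets and a threshold of 0.05. It was tested on simulated data first. The number of arrays limits precision. A gene's leading probe set has its highest mean log2 signal. Signals and SDs in the text are deposited values.

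Names came from the platform annotation (20380 probe sets with 1 symbol, 691 with several, 1555 with none). Members and lists were chosen with earlier results of these data known. Named are all members, the 10 genes most like the score and each list's 4 genes with the lowest p in mutant against wild-type. Further genes were named after their values were seen, as the text says. Alternatives covered normalization, pseudocount, filter, variance model, array weights, arrays left out and the replicate number as a block. Figures were drawn with Python 3.11.15 and matplotlib 3.10.9.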

Additional observations from a re-analysis of the deposited data

How the results depend on the processing

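No member was called under any setting in any comparison, save Ccl5 in mutant against wild-type without the 3 arrays numbered 1 (1 call). Mutant mouse 1, whose Ccl5 level overlapped wild-type, was among those left out. Leaving out 1 array at a time gave medians from -1.35 to -0.75 in mutant against wild-type, -1.17 to -0.076 in heterozygous against wild-type and -0.94 to 0.054 in mutant against heterozygous, and 6 to 9, 0 to 3 and 0 to 7 probe sets lower without overlap (6.02% to 11.7%, 7.96% to 11.9% and 8.14% to 16.3% of all probe sets). The same step moved Cd3e from -0.95 to 0.41 in the first comparison, Itgae from -0.26 to 0.12 in the second, and Cd3e from -0.33 to 0.99, Gzma from -1.17 to 0.89 and Itgae from -0.30 to 0.11 in the third. Without the arrays numbered 1 the heterozygous fold changes against wild-type were 0.013 for Ccl5, 0.44 for Cd3e, 0.26 for Gzma, 0.15 for Cd3d, 0.062 for Cd8a and 0.21 for Itgae (median 0.18), and those of mutant against heterozygous had a median of -1.28, with Cd3e at -0.78 and Gzma at -1.70, and 9 probe sets lower without overlap. Array weights gave Itgae 0.040 in the second comparison and Gzma -0.31 in the third, and a pseudocount of 64 gave Gzma -0.068. The causes were not tested. Same-numbered arrays had correlations of deviations from -0.06 to 0.46, not all above 0.1, so they were not taken as pairs, although beta-actin tilt went with the number; the fit with the replicate block called 0 members in each comparison and kept the medians, -1.02 in mutant against wild-type. Normalization, other pseudocounts, filters and variance models reversed no other member. Overlap counts and comparisons within array numbers were added after the data were seen. With 3 arrays per genotype the SE of Gzma was 0.894 on the log2 scale, so a difference of that size was not detectable.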

Other observations

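Among genes of antibody-producing cells, Ighm, the heavy chain of IgM, read 851.2, 1078.1 and 667.6 in the wild-type mice, 255.9, 418.3 and 352.8 in the heterozygous mice and 466.1, 518 and 431.4 in the mutant mice. All heterozygous and all mutant values lay below all wild-type values, and no heterozygous mouse stood near wild-type, unlike for Cd3d or Gzma. The log2 fold change of Ighm was -1.31 in heterozygous and -0.84 in mutant colons against wild-type (limma adjusted p = 0.232 and 0.998, neither passing), and its r with the member score was 0.58. Jchain, which joins the units of secreted IgM and IgA, read 5823 ± 1654 (SD, n = 3), 5092 ± 417 and 5197 ± 1579 in wild-type, heterozygous and mutant colons. Cd52, a surface protein of lymphocytes, followed the T cell genes (r = 0.96), and Pou2af1, a coactivator of B cells, had -0.15 in mutant against wild-type. The B cell factor Pax5, the dimmest gene of its list, read 0.5 to 1.6, at the level of the Bacillus controls. Other B cell genes too dim to test read higher. Cd79a was at 26.7 to 82.8, Cd79b at 43.2 to 82.1, Ms4a1 at 26.6 to 78 and Cd22 at 41.1 to 110. Blk, at 10 to 26.2, came nearer to the controls. These genes too were named after their values were seen.

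Among macrophage genes, Cd68 (-0.44), Lyz2, which encodes lysozyme (-0.36), Adgre1, the F4/80 antigen (-0.32), and C1qa, a complement chain (-0.26), had the lowest unadjusted p in mutant against wild-type, and none passed. C1qa read 187 ± 8.05, 186 ± 37.5 and 152 ± 6.41 in wild-type, heterozygous and mutant colons. Among pan-leukocyte genes, Rac2, a GTPase of blood cells, read 122 ± 7.21, 89.2 ± 33.5 and 75.2 ± 5.12 (log2 fold change -0.58), Cd48 had -0.61, Coro1a, an actin regulator, -0.53 and Lcp1 -0.35. Of the mast cell list only Kit was bright enough to test, and its r with the member score was -0.65. Cxcl13, the chemokine of B cell follicles, was the only tested gene of its list and had r = 0.27.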
